A study of Rattus norvegicus with 320 samples.

Results

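miR-22 was followed through 11 organs of the Fischer 344 rat at 2, 6, 21 and 104 weeks of age. Its 2 mature products, miR-22-3p and miR-22-5p, are 2 of the 616 miRNAs with counts, and they were taken by name. The pair was selected on its own levels in these samples, because the means of both arms were higher after week 2 in all 11 organs. The levels by organ and by age are therefore given as a description without a test. Tests were run for the difference between the sexes, for the interaction of sex and age, and for the ratio of the arms.

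Small RNA was sequenced from adrenal gland, brain, heart, kidney, liver, lung, skeletal muscle, spleen, testis, thymus and uterus. Rats of both sexes were sampled at each age, 4 per group, which gave 80 groups and 320 samples from 32 rats. The animals were of an inbred strain, and the labels name no treatment or transgene. Replicate 4 of the female spleen at week 104 and replicate 3 of the male brain at week 6 were left out, which left 318 samples. Totals ran from 315550 to 10571766 counts per sample with a median of 2848156. The organ labels were compared with 4 defining miRNAs. miR-124-3p in brain, miR-208a-3p in heart, miR-206-3p in skeletal muscle and miR-122-5p in liver were each higher in every sample of the named organ than in any other sample. Sequencing ran on 8 lanes over which organs, ages and sexes were spread, though in some comparisons of the sexes at a single age no lane was shared.

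MicroRNAs are cut from a hairpin precursor by the nucleases Drosha and Dicer, and 1 arm of the duplex is usually kept by an Argonaute protein as the guide strand. The guide pairs with messenger RNAs mainly through its seed, the bases 2 to 8 from its 5′ end, and lowers their stability and translation. miR-22 is made from a non-coding host transcript and is conserved among mammals. It is known as an abundant miRNA of cardiac and skeletal muscle that takes part in the growth response of the heart, and Sirt1 and Hdac4 are among its described targets.

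The mature sequences are shown because the seed sets which messages each arm can pair with, and the hairpin because it holds both arms in 1 transcript. They are those of RefSeq on the build GRCr8, written 5′ to 3′, with the seed in capitals in the mature forms and both mature arms in capitals in the hairpin.
rno-miR-22-3p: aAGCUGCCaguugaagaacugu
rno-miR-22-5p: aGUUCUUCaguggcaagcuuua
rno-mir-22: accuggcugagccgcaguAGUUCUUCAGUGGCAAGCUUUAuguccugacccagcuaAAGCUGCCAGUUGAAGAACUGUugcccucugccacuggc

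The hairpin lies at chr10:60805331-60805425 on the + strand of GRCr8 and has 95 bases. The 5p arm takes its bases 19 to 40 and the 3p arm its bases 57 to 78, with 16 bases between them. In the fold of lowest energy, at -43 kcal/mol, the hairpin had 37 base pairs, of which 19 joined the arms, and all 7 seed bases of each arm were paired. The nearest protein-coding genes in RefSeq are Tlcd2, 3966 bases downstream, and Wdr81, 11660 bases upstream. Mir6326 lies 143 bases upstream and was not analysed here. Among the other miRNAs with counts, 0 shared the seed of either arm, and the same held for 693 RefSeq rat mature names.

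miR-22-3p was the fourth most abundant by mean level of the 616 miRNAs with counts, without let-7, which was not analysed here. Levels are given as CPM, counts divided by the sample's total and scaled to the same sum in every sample, so that a level is a share of the miRNA counts and not an amount per cell. miR-22-3p made up 5.51% of all counts and ran from 7820 to 204915 CPM. miR-22-5p was rank 243 and ran from 4.54 to 170 CPM. Over the 318 samples, the 3p arm held 99.9% of the counts of both arms. The 3p arm was among the 10 most abundant miRNAs in 284 samples and was the most abundant of all in 18, which were 14 heart and 4 skeletal muscle samples. It was read from 11642 to 826691 times per sample and its counting error is small. The 5p arm was read 4 to 513 times, with a median of 109 and under 20 counts in 11 samples, so its values carry more counting error.

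Striated muscle and liver held the most miR-22. At week 21, miR-22-3p was at 167871 ± 26717 CPM in heart, 145444 ± 19623 in liver and 114973 ± 24517 in skeletal muscle (mean ± SD, n = 8 in organs of both sexes and n = 4 in testis and uterus). Lung followed at 57628 ± 9322, adrenal gland at 47695 ± 11650, kidney at 47594 ± 13136, spleen at 42162 ± 9481 and brain at 41470 ± 3669 CPM. Testis was at 33844 ± 8090, uterus at 26061 ± 5096 and thymus at 18459 ± 6035 CPM. In this order, the ranges of every pair of neighbours overlapped except between skeletal muscle, with a lowest sample of 79302, and lung, with a highest of 76574. The 5p arm had a different leader, with 134 ± 25.3 CPM in skeletal muscle, 124 ± 17.4 in liver and 117 ± 24.5 in heart, which overlapped each other. The other organs had 5p means of 12.9 to 48.6 CPM, lowest in thymus and highest in brain.

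The heart had the highest mean 3p level at every age. At week 2 its 4 female samples were at 81440, 99803, 87399 and 86500 CPM and its 4 male samples at 77235, 63905, 62096 and 87194 CPM. At week 6 the females were at 162459, 174455, 176890 and 131994 and the males at 110579, 168282, 169858 and 161627 CPM. At week 21 the females were at 204915, 160680, 154682 and 185148 and the males at 198444, 164948, 148476 and 125674 CPM. None of the later samples reached down to the week 2 range, and the rat at 110579 CPM was the lowest of them. At week 104 the females were at 188529, 199277, 197954 and 114593 and the males at 142955, 143061, 157417 and 171824 CPM. miR-22-3p thus took a mean of 8.07% of the heart's miRNA counts at week 2 and 15.7 to 16.8% afterwards. The heart's 5p arm was at 29.4 to 67.4 CPM at week 2, with a median of 51.5, and at 86.9 to 170 CPM at week 21, with a median of 115. The 5p samples of these ages did not overlap either, whereas at week 6 a female at 48.7 CPM lay inside the week 2 range.

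**Figure D1:**
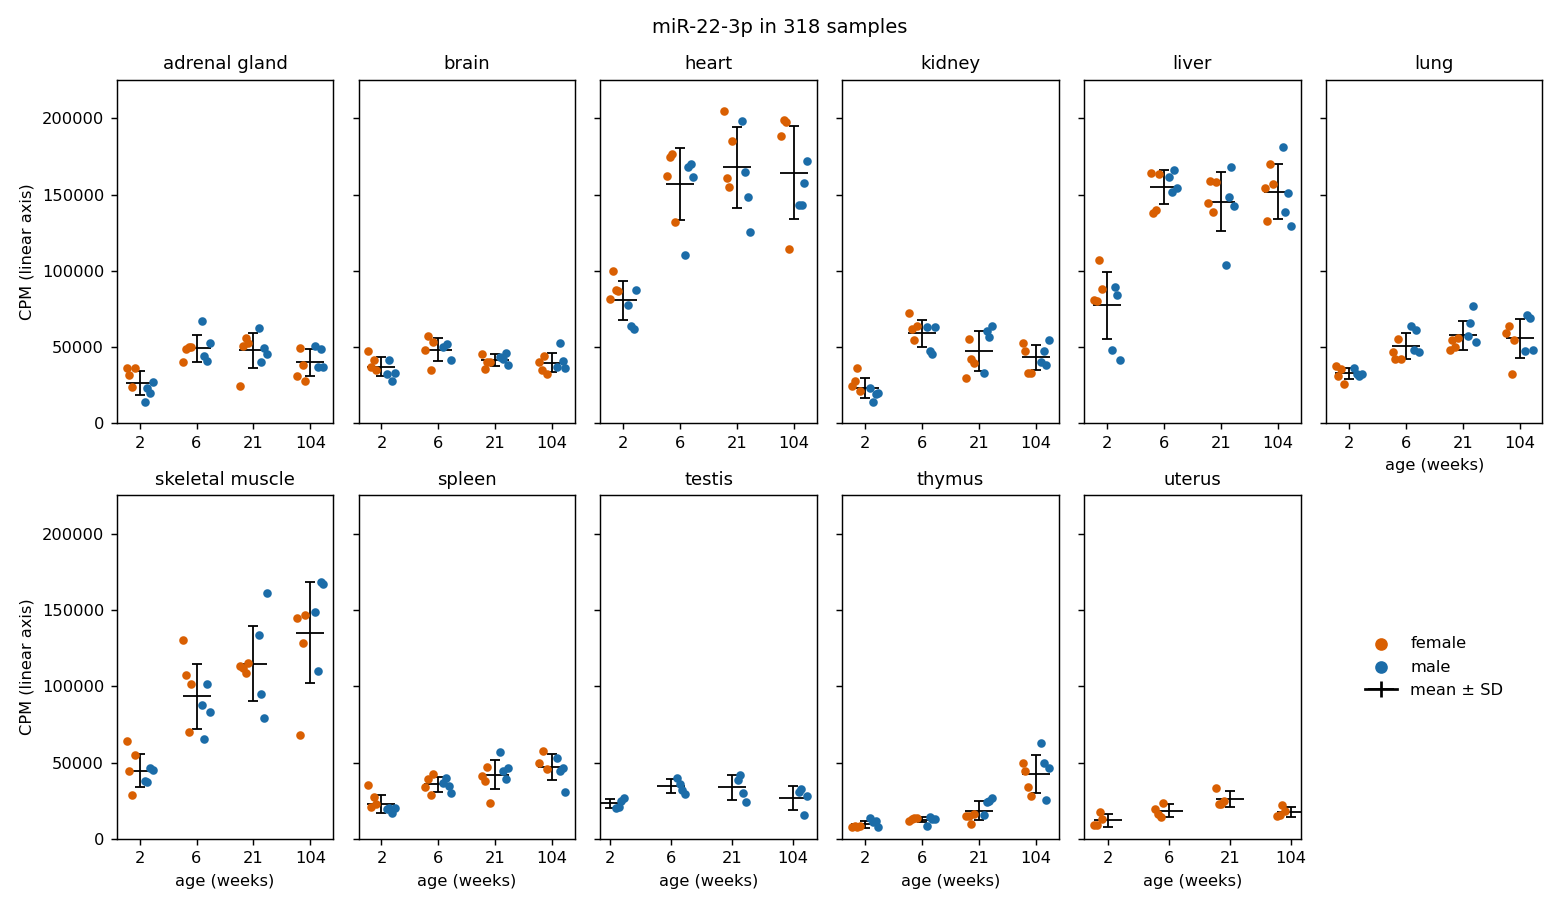
Level of miR-22-3p (CPM, linear axis from 0) against age in weeks in 11 organs, with a point per sample, females orange and males blue, and bars for the mean ± SD. Heart, liver and skeletal muscle stand highest, and heart goes from a mean of 80696 CPM at week 2 to 157018 at week 6.

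In skeletal muscle, the means of miR-22-3p went on climbing after week 6. Its 3p samples had a lowest, median and highest value of 28498, 44878 and 63896 CPM at week 2. At week 6 these were 65279, 94679 and 130710, at week 21 they were 79302, 112685 and 161311, and at week 104 they were 68201, 145833 and 168664 CPM. No sample of a later age overlapped week 2, while the later ages overlapped one another widely. The 5p arm of muscle had a median of 55.0 CPM at week 2, 109 at week 6, 141 at week 21 and 139 at week 104. Its week 6 range, from 79.8 to 134 CPM, reached into the week 2 range of 43.8 to 84.2, and those of week 21 (90.7 to 159) and week 104 (113 to 158) did not.

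Liver reached its later level by week 6. Its 3p samples ran from 41763 to 107242 CPM at week 2, with a median of 82395, and from 138222 to 165956 at week 6, with a median of 157741. The medians were 146542 CPM at week 21 and 152802 at week 104. All week 6 and week 104 samples were above week 2, and 1 male at week 21, with 103506 CPM, was within its range. The 5p arm had medians of 63.7, 120, 122 and 108 CPM at the 4 ages, and did not overlap between week 2 (34.4 to 78.6) and week 21 (101 to 152).

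Kidney, adrenal gland and lung were also higher by week 6. In kidney the 3p median was 21822 CPM at week 2, 62202 at week 6, 48900 at week 21 and 43635 at week 104. Its week 2 samples, at 13653 to 36264 CPM, were all below those of week 6, at 45396 to 72331, and overlapped those of week 21, at 29944 to 63949. In adrenal gland the medians were 25334, 49056, 50129 and 37666 CPM, and again only week 6 was clear of week 2. In lung the medians were 32232, 47398, 55134 and 56758 CPM, with weeks 6 and 21 clear of week 2 and 1 sample of week 104, at 32361 CPM, inside its range of 25555 to 37312.

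Spleen and thymus had their highest means at week 104. The spleen had 3p medians of 20785, 35540, 42744 and 46318 CPM, and its ranges overlapped at every step. The study's sample table lists lower RNA integrity for the week 2 spleens, whose part in these values was not tested. The thymus had the lowest mean of all organs at week 2, from 7820 to 13706 CPM with a median of 8387. Its medians were then 13102 at week 6, 15938 at week 21 and 45613 CPM at week 104, where the samples ran from 25734 to 62961 and overlapped week 21 by 1 value but not week 2. The 5p arm of the thymus was at 5.21 to 15.0 CPM at week 2, at 8.41 to 19.9 at week 21 and at 21.2 to 46.4 at week 104, with no overlap at the last step.

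Brain had the smallest difference between the ages. Its 3p medians were 35888, 49753, 41145 and 38541 CPM, and week 2, at 27809 to 47395, overlapped all later ages. Its 5p medians, at 44.8, 60.6, 47.5 and 45.4 CPM, had the same order of ages.

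Testis and uterus were measured in 1 sex each. In testis, miR-22-3p was at 20436, 20910, 25089 and 26556 CPM at week 2, at 40080, 36104, 31975 and 29536 at week 6, at 38860, 41968, 30345 and 24202 at week 21, and at 30809, 32844, 15322 and 28020 at week 104. Only week 6 was clear of week 2. In testis, 17.4% of all miRNAs likewise had every week 6 sample above every week 2 sample. In uterus miR-22-3p was at 8727, 8884, 17728 and 13075 CPM at week 2, at 19589, 16517, 14188 and 23788 at week 6, at 33571, 22950, 22823 and 24899 at week 21, and at 14823, 15470, 22015 and 18367 at week 104. Here, in CPM, week 21 was above every sample of week 2 and of week 104. The difference from week 104 depended on the scaling, as given below. The 5p arm of the uterus had the lowest mean of all organs at week 2, with samples at 4.54 to 8.28 CPM, and was at 14.5 to 18.5 CPM at week 21.

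**Figure D2:**
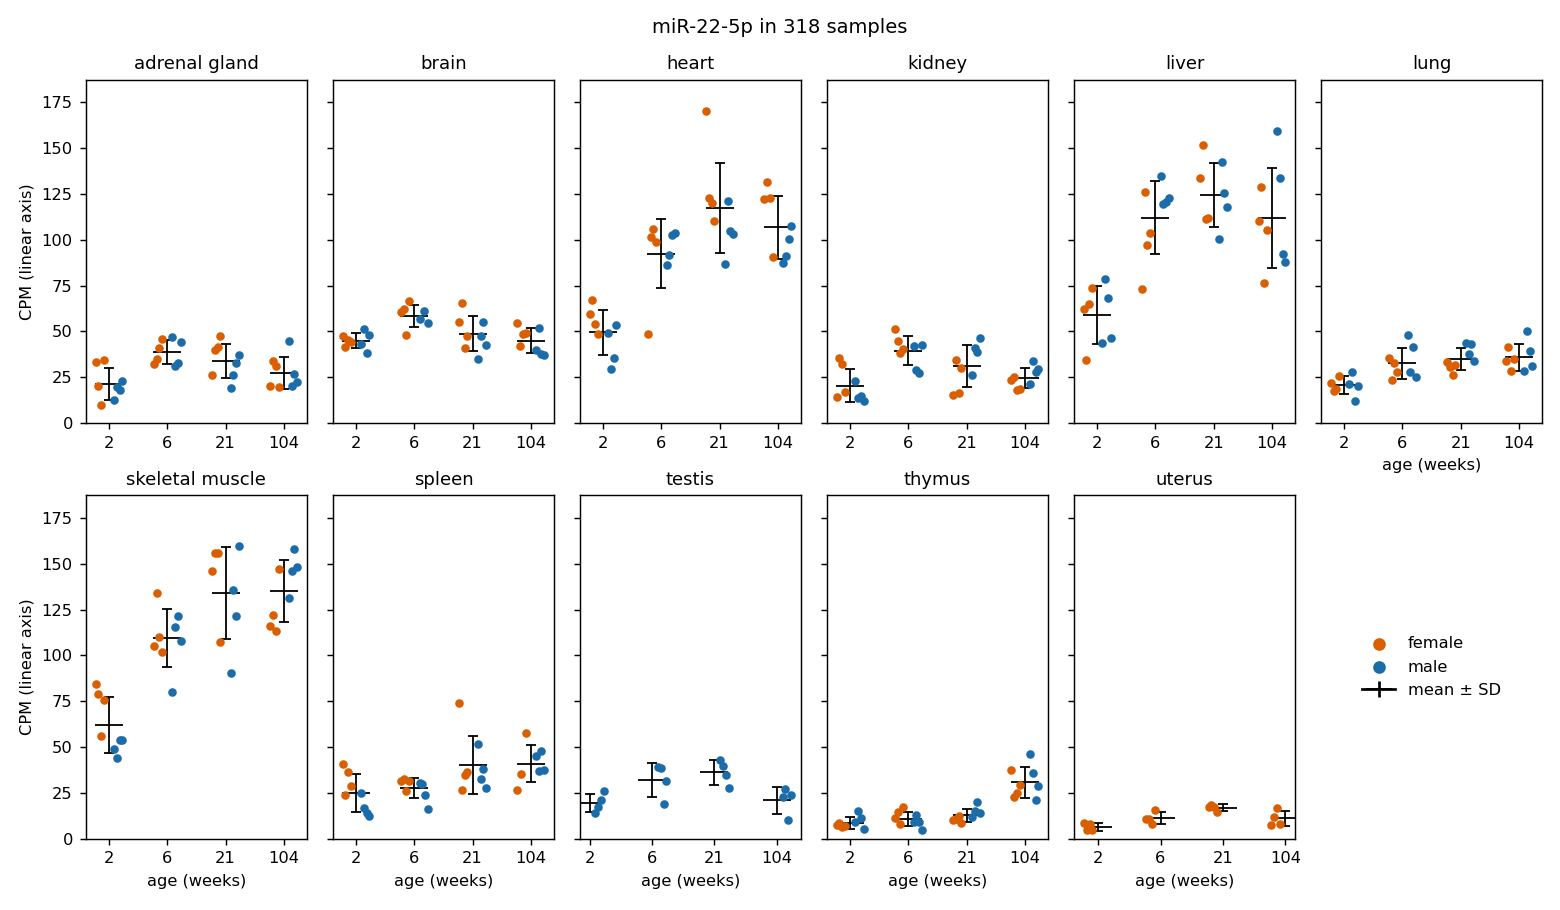
Level of miR-22-5p (CPM, linear axis from 0) against age in weeks in 11 organs, with a point per sample, females orange and males blue, and bars for the mean ± SD. Skeletal muscle, liver and heart stand highest at week 21, at means of 134, 124 and 117 CPM, and thymus goes from 12.9 at week 21 to 30.8 at week 104.

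Counted over the organs, all samples of week 6 were above all samples of week 2 in 7 organs for miR-22-3p and in 0 for miR-22-5p. Against week 2, week 21 was clear in 4 organs for the 3p arm and in 5 for the 5p arm, and week 104 in 4 for either. No organ had week 2 above a later age without overlap. Over all miRNAs and organs, the share with all samples higher was 3.98% at week 6, 5.52% at week 21 and 5.02% at week 104. These counts follow the selection of the pair and nothing is read from them. The 3 steps share the week 2 samples. In whole organs, a change in the share of a cell type and a change in RNA per cell cannot be told apart.

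How large the difference is depends on how samples are scaled. Fold changes were fitted with edgeR, with its trimmed mean of M-values (TMM), a scaling that sets the bulk of the miRNAs level between samples. Between weeks 2 and 21, the log2 change of miR-22-3p was 2.24 (SE 0.17) in skeletal muscle, 1.77 (0.11) in heart, 1.60 (0.18) in uterus and 1.45 (0.15) in adrenal gland. It was 1.39 (0.13) in liver, 1.29 (0.12) in kidney, 1.20 (0.13) in spleen, 1.17 (0.12) in lung, 0.97 (0.16) in thymus, 0.82 (0.17) in testis and 0.62 (0.10) in brain. The log2 change of miR-22-5p ran from 0.55 (0.087) in brain to 1.98 (0.14) in muscle, with 1.95 (0.13) in heart. Scaled by the total count alone, the 3p change was 1.36 in muscle, 1.06 in heart and 0.17 in brain. The change of either arm kept its sign in all 11 organs under both scalings, but it was over 2-fold in 8 organs with TMM and in 4 with the total count. A change of over 2-fold upward was found for 15.3% of all miRNAs and organs with TMM and for 9.28% with the total count. The median log2 change over all miRNAs lay between -0.22 and 0.07 in the organs with TMM and between -0.82 and -0.07 with the total count. With TMM, 4.55% of the miRNAs had a larger log2 change than miR-22-3p in heart, 5.19% in muscle and 29.1% in brain.

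**Figure D3:**
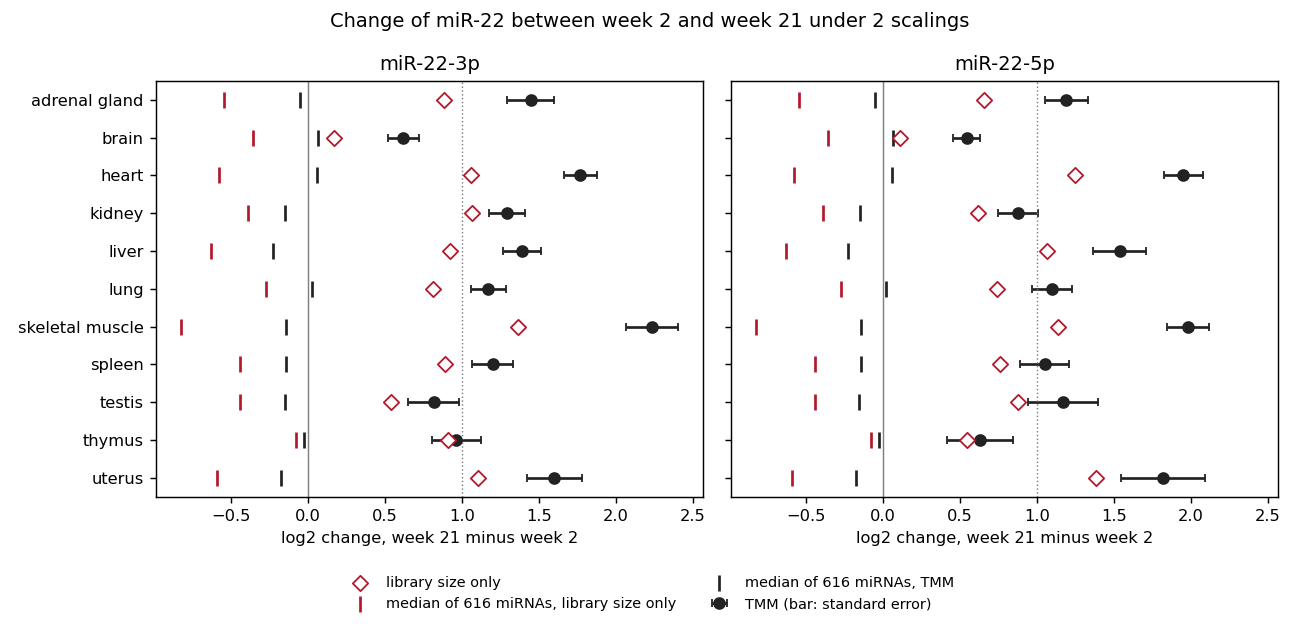
Log2 change of miR-22-3p (left) and miR-22-5p (right) between week 2 and week 21 in 11 organs, fitted with TMM (filled circles, bars for the standard error) and with the total count only (open diamonds), with ticks for the median of 616 miRNAs under each scaling and a dotted line at 2-fold. The diamonds lie left of the circles in all organs, by about as much as the medians move.

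With TMM, the log2 change of miR-22-3p between weeks 2 and 6 was 0.39 to 1.49, and over 1 in 7 organs. From week 6 to week 21 it was -0.04 to 0.89, with the highest value in muscle and over 1 in 0 organs. That second step changed sign with the total count in adrenal gland (0.35 against -0.04), liver (0.25 against -0.09) and testis (0.23 against -0.02), and for the 5p arm in adrenal gland (0.12 against -0.21).

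The step from week 21 to week 104 differed by organ. Thymus had log2 changes of 0.90 (SE 0.16) for the 3p arm and 0.90 (0.20) for the 5p arm, and 1.25 and 1.27 with the total count. In the thymus the summed level of 4 lymphocyte miRNAs was 31585 to 50360 CPM at week 21 and 11598 to 29628 at week 104, and that of 4 red blood cell miRNAs was 1156 to 5303 and 6285 to 93919 CPM. Their part in the level of miR-22 was not tested. In testis the sign depended on the scaling, at 0.93 (0.17) with TMM and -0.34 with the total count for the 3p arm, and at 0.47 (0.22) and -0.78 for the 5p arm. The 3 germ cell miRNAs miR-34b-5p, miR-34c-5p and miR-449a-5p summed to 149253 to 169950 CPM in testis at week 21 and to 44.4 to 2147 at week 104, and the median of all miRNAs moved by 0.00 with TMM and -1.13 with the total count. No direction is therefore given for testis. In uterus the 3p value was -0.06 (0.17) with TMM and -0.56 with the total count, where the median of all miRNAs moved by -0.15 and -0.61. In liver the 3p value was -0.12 with TMM and 0.06 with the total count. The remaining organs had 3p values of -0.42 in adrenal gland to 0.28 in muscle.

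Blood and muscle miRNAs moved with some of these levels. Between weeks 2 and 21, red blood cell miRNAs summed to 37407 to 61144 and 56539 to 114524 CPM in heart, and to 121545 to 233013 and 34619 to 80505 CPM in spleen. Striated muscle miRNAs, 7 in number, summed to 59364 to 106022 and 111168 to 161233 CPM in skeletal muscle, and to 80797 to 111520 and 74317 to 95672 CPM in heart. Liver cell miRNAs summed to 22263 to 38790 and 22359 to 36990 CPM in liver. With the red blood cell miRNAs taken out of the total, miR-22-3p was over 2-fold higher at week 21 in 4 organs. The count was also 4 with the whole total, but single organs moved. The log2 change of miR-22-3p was 0.69 in spleen, against 0.89 with the whole total, and 1.12 in heart, against 1.06.

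No difference between the sexes passed over all ages. Averaged over the ages, the male minus female difference passed an adjusted p of 0.05 in 0 of 9 organs for either arm (edgeR quasi-likelihood test, Benjamini-Hochberg over all miRNAs), against 1.39% of all miRNAs in these organs. The unadjusted p was under 0.05 in 3 organs for the 3p arm and in 2 for the 5p arm. The 3p differences ran from -0.22 in heart to 0.27 in thymus on the log2 scale, and the 5p differences from -0.28 in spleen to 0.16 in thymus. In brain, the 95% interval (normal) for the 3p arm was -0.15 to 0.14, and in skeletal muscle -0.22 to 0.23. Without adjustment it did not hold 0 in heart (-0.36 to -0.07), lung (0.02 to 0.33) and thymus (0.06 to 0.49), and held 0 in the remaining organs.

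In heart, females had the higher mean of miR-22-3p at all 4 ages. The female mean was 88785 ± 7799 CPM at week 2, 161449 ± 20625 at week 6, 176356 ± 23155 at week 21 and 175088 ± 40613 at week 104 (SD, n = 4). The male means were 72607 ± 11838, 152587 ± 28231, 159386 ± 30616 and 153814 ± 13795 CPM. The ranges of the sexes overlapped at each age. The fitted difference was -0.22 (SE 0.074, adjusted p = 0.255) for the 3p arm and -0.27 (SE 0.086, adjusted p = 0.182) for the 5p arm by edgeR. By DESeq2 they were -0.23 (adjusted p = 0.0233) and -0.29 (adjusted p = 0.0116), so the call rests on the test used. In heart, 0.649% of the miRNAs passed by edgeR.

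Taken age by age, 0 of 36 contrasts between the sexes passed for miR-22-3p, with 8 at an unadjusted p under 0.05, and 1 of 36 passed for miR-22-5p, against 1.32% of all miRNAs. That contrast was skeletal muscle at week 2. The 4 females had 84.2, 79.0, 56.0 and 75.6 CPM of the 5p arm, from 272, 237, 98 and 248 counts, and the 4 males had 48.9, 43.8, 53.9 and 54.0 CPM, from 175, 122, 156 and 131 counts. All females were above all males. The sexes shared no lane here, so sex and lane cannot be told apart within this contrast. The log2 difference was -0.67 (SE 0.19, adjusted p = 0.0326 by edgeR), in a contrast where 5.68% of the miRNAs passed. It did not pass with the total count only (adjusted p = 0.104), with the total without red blood cell miRNAs (0.0539), with the lane in the fit (0.352), or without replicate 2 (0.170), 3 (0.139) or 4 (0.216), and passed by DESeq2 (0.00228). The 3p arm of the same samples was at 28498 to 63896 CPM in females and 37109 to 46254 in males, and did not pass. Of the 3p contrasts with an unadjusted p under 0.05 (edgeR), those of week 2 were all lower in males. Their log2 differences were -0.46 in adrenal gland, -0.45 in heart, -0.43 in liver, -0.41 in spleen and -0.38 in brain. The others were 0.66 in adrenal gland and 0.61 in thymus at week 21, and -0.35 in heart at week 104. Organs of the same rats are among these contrasts. In spleen and brain at week 2, and in adrenal gland and thymus at week 21, the sexes likewise shared no lane. Sex and lane cannot be told apart in those contrasts. The CPM means of adrenal gland at week 21 were 45889 in females and 49501 in males, a smaller difference than the one fitted with TMM. Among those females, replicate 1 was at 24067 CPM.

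The interaction of sex and age passed in 0 of 9 organs for either arm (edgeR, 3 terms together), against 1.42% of all miRNAs, with unadjusted p under 0.05 in 2 organs for the 3p arm and in 4 for the 5p arm. The smallest adjusted p of the 3p arm was 0.140, in adrenal gland. There the female mean of miR-22-3p was 31889 ± 5840 CPM at week 2 and 45889 ± 14710 at week 21, and the male mean was 20905 ± 5583 and 49501 ± 9571 (SD, n = 4). The smallest for the 5p arm was 0.129, in skeletal muscle.

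**Figure D4:**
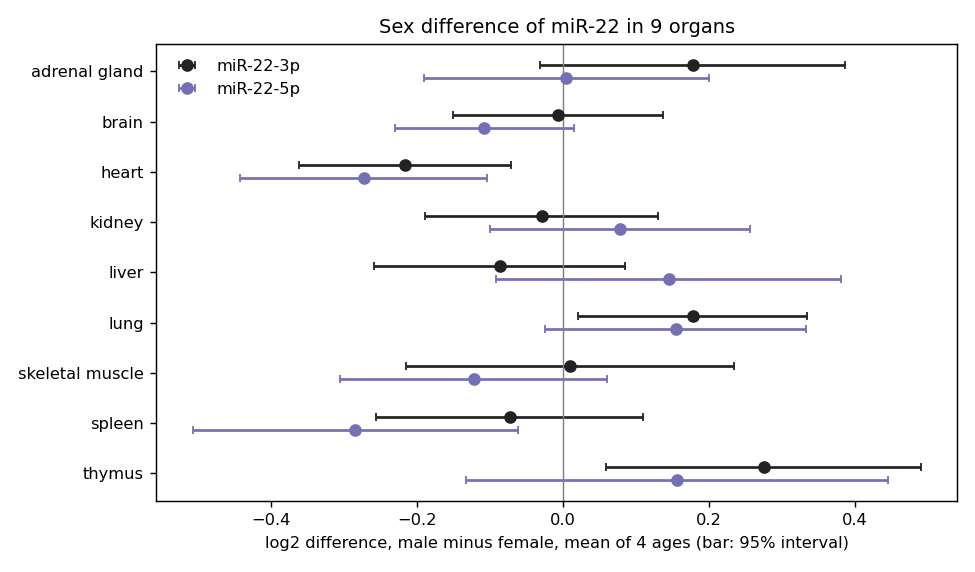
Log2 difference of miR-22-3p (black) and miR-22-5p (purple) between males and females in 9 organs, averaged over the 4 ages, with bars for the 95% interval. In heart both arms lie below 0, at -0.22 and -0.27, and in thymus both points lie above it.

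The ratio of the arms does not depend on the scaling, since both are read in the same library. It was taken as log2 of (3p count + 0.5) over (5p count + 0.5). By age, the ratio passed in 0 of 11 organs between weeks 2 and 21 and in 0 of 11 between weeks 21 and 104 (exact two-sided permutation test, Benjamini-Hochberg over 11 organs). The unadjusted exact p was under 0.05 only in kidney for the first step, from 10.20 ± 0.38 to 10.62 ± 0.35 (p = 0.0354, adjusted 0.314), and in testis for the second, from 9.84 ± 0.13 to 10.33 ± 0.15 (p = 0.0286, adjusted 0.314). The latter is the smallest p that 4 samples against 4 allow. Testis and uterus could therefore not have passed by themselves in either step, and their part in the 0 is no negative result. In heart the ratio was 10.69 ± 0.20 at week 2 and 10.49 ± 0.31 at week 21, a change of -0.20 (SE 0.13).

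The arms were not in the same ratio in every organ, a comparison chosen after the data were seen. Brain and skeletal muscle had the lowest mean log2 ratio, 9.72 in each, which are 841 and 842 counts of the 3p arm for each of the 5p arm. Spleen and testis were at 10.12, thymus at 10.29, liver at 10.35, adrenal gland at 10.40 and kidney at 10.53. Heart and lung were at 10.63 and uterus at 10.68, which are 1580 counts of the 3p arm per 5p count in heart and 1639 in uterus. Single samples ran from 506 to 3315.

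Of the 55 pairs of organs, 41 differed in the ratio (two-sided permutation test with 100000 resamples, adjusted p under 0.05 over the 55 pairs). The permutations treat samples as independent, although organs of the same rat are among them. Heart was above skeletal muscle by 0.91 (SE 0.085, p = 1e-05, adjusted 2.89e-05), a ratio 1.88 times as high, and 1e-05 is the smallest p these permutations can give. It was higher in 32 of 32 pairs of samples with the same sex, age and replicate number. Brain was below 9 of the 10 other organs, as was muscle, and these differed from each other by -0.0026 (SE 0.080, permutation p = 0.973). Heart, lung and uterus were each above 7 organs. Between heart and lung the difference was -0.0056 (SE 0.068, adjusted p = 0.972). Heart and skeletal muscle, both rich in miR-22-3p, thus lay near opposite ends of the order of ratios. With the same sex, age and number as a replicate block, 36 of 54 pairs differed, and with only samples of at least 50 counts of the 5p arm, 34 of 55.

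**Figure D5:**
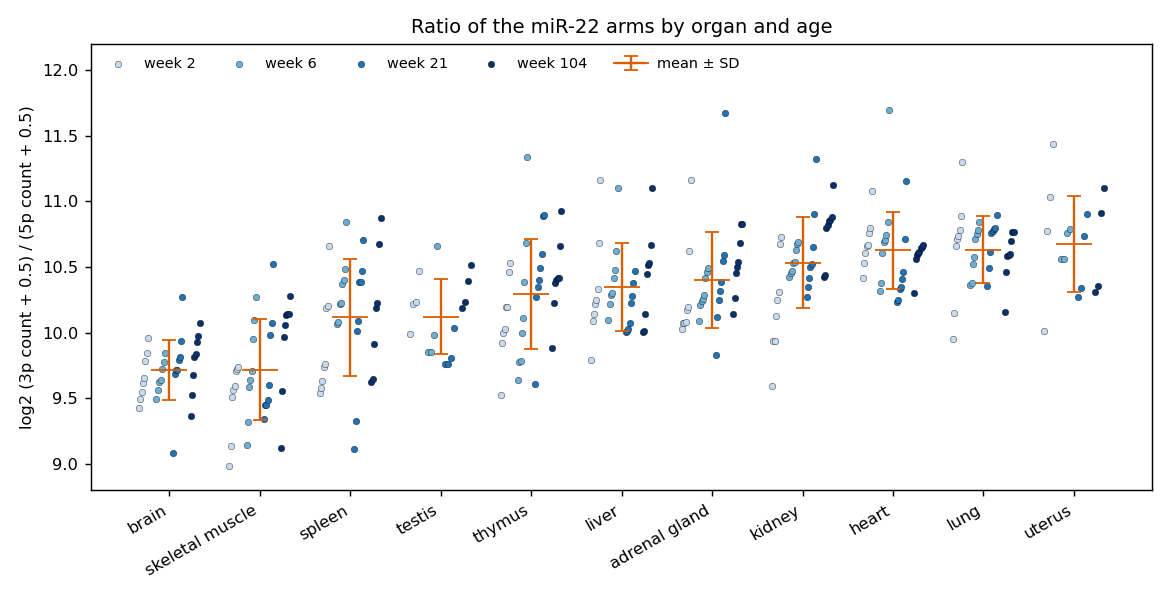
Log2 ratio of miR-22-3p to miR-22-5p counts (each + 0.5) by organ, ordered by the mean, with a point per sample shaded from week 2 (light) to week 104 (dark) and orange bars for the mean ± SD. Brain and skeletal muscle lie lowest at 9.72 and uterus highest at 10.68.

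The miRNAs whose pattern was most like that of miR-22-3p were found by Pearson's coefficient over the 44 means of organ and age, on log2(CPM + 1), among 390 miRNAs with a mean of at least 10 CPM. These points share organs, rats and totals, and the coefficients are a description. With each organ centred on its own mean, so that only the course over age counts, they were miR-22-5p at 0.959, miR-1843a-5p at 0.841, miR-1843b-5p at 0.836, miR-29c-3p at 0.828 and miR-664-3p at 0.823. The miR-1843 forms are nearly identical in name and level, and the split of reads between them is uncertain. miR-29c-3p belongs to a family known to target collagen and other matrix messages. In heart it had means of 165, 500, 864 and 1091 CPM at the 4 ages, and in skeletal muscle 35.5, 123, 477 and 888 CPM. miR-664-3p had 23.4, 33.1, 53.7 and 64.1 CPM in heart and 19.2, 41.4, 75.3 and 88.7 in skeletal muscle. Without centring, where the order of the organs dominates, they were miR-22-5p at 0.950, miR-29c-5p at 0.720, miR-378b at 0.706, miR-190a-5p at 0.701 and miR-23b-3p at 0.697.

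Other miRNAs of the same biology were taken from lists and counted over member and organ between weeks 2 and 21 (edgeR, adjusted p under 0.05). Over all miRNAs and organs, 21.0% passed upward and 25.3% downward, and the median log2 change was -0.06. miRNAs known for roles in heart growth and fibrosis, 17 in number, rose in 112 of 187 tests and fell in 22, with a median of 0.78. miR-29a-3p and miR-29b-3p had the highest medians, 3.25 and 3.12, and rose in 11 of 11 organs, while miR-214-3p (-0.88, down in 8) and miR-199a-5p (-0.79, down in 8), both known from fibrosis, had the lowest. With the total count only, this list rose in 76 tests and fell in 31, where 10.9% of all miRNAs and organs passed upward and 34.7% downward.

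Within the heart, 13 of the 17 rose and 3 fell by TMM, where 27.3% of all miRNAs rose and 25.3% fell, and 5 rose and 5 fell with the total count only, where 8.77% of all miRNAs rose and 42.0% fell. The 5 that rose under both scalings were miR-29a-3p, miR-29b-3p, miR-29c-3p, miR-23a-3p and miR-24-3p. miR-29a-3p had means of 492 CPM at week 2 and 4751 at week 21, a log2 change of 4.10 (SE 0.12). The muscle-specific miR-133a-3p, with means of 79421 and 79408 CPM, had a log2 change of 0.71 (SE 0.11) by TMM and of -0.00080 with the total count. miR-208b-3p, encoded in an intron of the slow myosin gene Myh7, fell by 2.26 on the log2 scale (SE 0.14), from 10043 to 1265 CPM, and miR-208a-3p, its relative in Myh6, had a log2 change of 0.32 (SE 0.13) by TMM and -0.39 with the total count, with means of 837 and 639 CPM. The widely studied miR-21-5p had a log2 change of 0.07 (SE 0.13) by TMM, which did not pass, and of -0.63 with the total count.

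The 9 miRNAs of the miR-17 to miR-92 cluster and its relatives, known for promoting proliferation, rose in 4 of 99 tests and fell in 64, with a median of -0.60. Their lowest medians were those of miR-18a-5p (-1.52) and miR-17-5p (-0.96), and their highest those of miR-25-3p (-0.25) and miR-19a-3p (-0.33). Of the developmental timing list, only miR-98-5p was analysed here, which rose in 4 of 11 organs and fell in 1, with 0 and 5 by the total count only.

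Marker lists of cell types were counted between the same ages, where 21.0% of all miRNAs and organs passed upward and 25.3% downward. Over member and organ, lymphocyte miRNAs rose in 27 of 44 tests and fell in 1, those of endothelium and smooth muscle rose in 26 of 44 and fell in 2, and those of striated muscle rose in 32 of 77 and fell in 5. Red blood cell miRNAs rose in 13 of 44 and fell in 12, nervous tissue miRNAs rose in 21 of 66 and fell in 8, germ cell miRNAs rose in 13 of 33 and fell in 9, and liver cell miRNAs rose in 2 of 33 and fell in 12. These counts pool organs with high and low levels of a list. At week 21 the liver cell miRNAs had a mean sum of 31006 CPM in liver and 10.5 in kidney. The germ cell miRNAs had 162938 CPM in testis and 4695 in lung. With the total count only, 10.9% of all miRNAs and organs passed upward and 34.7% downward. By that count, lymphocyte miRNAs rose in 20 tests and fell in 6, those of endothelium and smooth muscle rose in 8 and fell in 8, and those of striated muscle rose in 16 and fell in 6. By the same count, red blood cell miRNAs rose in 6 and fell in 17, nervous tissue miRNAs rose in 10 and fell in 17, germ cell miRNAs rose in 9 and fell in 11, and liver cell miRNAs rose in 1 and fell in 13.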

How the data were processed

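Small RNA libraries of 320 organ samples were sequenced by the authors. Per the study's methods, reads were trimmed and filtered with fastp 0.23.2, aligned with Bowtie 1.3.1 to miRBase and other transcript collections, and miRNAs with a low mean count were removed. The deposited values are whole-number counts of reads per miRNA, without normalization, for 604 named miRNAs and 12 candidates. All columns were mapped by their labels.

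CPM was the count divided by the column total. let-7 miRNAs were not analysed here and are not in these totals. The 2 samples that the authors removed were left out. Each organ was fitted with edgeR 4.0.16 in R 4.3.3 (TMM, quasi-likelihood) over all 616 miRNAs and the groups of sex and age, with Benjamini-Hochberg adjustment over all miRNAs and a threshold of 0.05. A standard error is the absolute log2 change over the root of F. Arm ratios were permuted with NumPy 2.4.6 and pandas 2.3.3 in Python 3.11.15. The normal intervals of the sex differences used SciPy 1.17.1, and the hairpin was folded with ViennaRNA 2.7.2. The fitting was tested on simulated data. Replicates are separate rats, and the same number in another sex or age is another rat. Organs of the same sex, age and number were taken to come from the same rat.

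Both arms were named, and the 5 miRNAs most like miR-22-3p with and without centring, miRNAs sharing a seed, and the 2 highest and 2 lowest of each list by median change. Other miRNAs of the heart list were named after their values were seen. A further list of miRNAs is not reported here. The members, lists and tests were chosen with earlier results of these data known. Alternatives were the total count, DESeq2 1.42.0, the full set of 320 samples, a filter at a mean count of 10, the lane, a replicate block, a total without red blood cell miRNAs, a pseudocount of 1, permuting within sex, 50 counts of the 5p arm, and leaving out each replicate. The comparison of arm ratios between organs, the sex tests of miR-22-5p by age, their total without red blood cell miRNAs and the list counts under other scalings were added after the data were seen.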

Additional observations from a re-analysis of the deposited data

Results flagged for a closer look

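In groups of 4 rats, a sample was picked out when its gap to the nearest other sample was over Dixon's 95% limit of the group's range. This was the case in 5 of 156 groups tested over both arms, where chance alone gives about 1 in 20. In the female adrenal gland, replicate 1 had 40351 CPM of miR-22-3p at week 6, with the others at 48436 to 49730, and another rat, replicate 1 of week 21, had 24067 CPM, with the others at 50757 to 56026. In the female heart, replicate 4 of week 104 had 114593 CPM of miR-22-3p, with the others at 188529 to 199277, and replicate 1 of week 6 had 48.7 CPM of miR-22-5p, with the others at 98.8 to 106. In the male heart, replicate 1 of week 6 had 110579 CPM of miR-22-3p, with the others at 161627 to 169858. All 5 were the lowest of their group, and the reason was not tested.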

How the results depend on the processing

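The sign of the log2 change of either arm between weeks 2 and 21 was the same in all 11 organs under every alternative tried. The number of organs over 2-fold was 8 for either arm, 4 with library size only and 4 with the total without red blood cell miRNAs, and 8 to 9 for miR-22-3p and 7 to 8 for miR-22-5p when a replicate was left out. Counts of this kind cannot say which scaling is nearer to amounts per cell. For the sex difference over all ages, DESeq2 gave 1 organ for each arm, the heart, where edgeR gave 0. For the sexes at each age, miR-22-3p had 1 contrast with DESeq2 (adrenal gland at week 21), 2 with a mean count of at least 10 (the same, and liver at week 2), and 0 to 1 without a replicate (adrenal gland at week 2, without replicate 1). It had 0 with library size only, 0 with the total without red blood cell miRNAs and 0 with the lane as a covariate. miR-22-5p had 0 with library size only, 0 with the total without red blood cell miRNAs, 0 with the lane as a covariate, 2 with DESeq2 (skeletal muscle and heart at week 2), and 0 to 1 without a replicate. The interaction of sex and age was called in 1 organ for miR-22-3p (adrenal gland) with DESeq2 and with a mean count of at least 10, and in 0 to 1 without a replicate (without replicate 1). For miR-22-5p it was called in 1 organ (skeletal muscle) with DESeq2 and with a mean count of at least 10. The arm ratio between ages was called in 0 organs throughout, where testis and uterus had too few samples to pass by themselves. Pairs of organs with different arm ratios numbered 24 within week 2, 23 within week 6, 22 within week 21 and 18 within week 104, with fewer samples in each, and 34 to 39 without a replicate. With library size only, the heart growth and fibrosis list within the heart rose in 5 and fell in 5, and miR-98-5p rose in 0 and fell in 5. The replicate block changed no call of a sex difference, which stayed at 0 organs for either arm, 0 contrasts at each age for miR-22-3p and 1 for miR-22-5p. Replicate numbers do not pair the sexes, since the deviations of 142 same-numbered male and female samples correlated at -0.804 to 0.742, with a median of -0.00070 and 43 over 0.1. The 5p counts, with a median of 109, limit the ratio of the arms and all tests of miR-22-5p in thymus and uterus.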

Other observations

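The samples left out had levels of miR-22 as follows. Replicate 3 of the male brain at week 6, with a total of 6571567 counts, had 53753 CPM of miR-22-3p and 52.3 CPM of miR-22-5p. Replicate 4 of the female spleen at week 104, with a total of 8601758 counts, had 59918 CPM of miR-22-3p and 43.2 CPM of miR-22-5p.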
